A study of Homo sapiens with 33 samples.

Results

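SpACE, a dual base editor with an adenosine deaminase and a cytidine deaminase on 1 protein, was compared with ABEmax, a full-size adenine base editor, by RNA sequencing of HEK293T cells in which both editors were directed by the HEKsite2 guide RNA. The comparison was defined by the editor and guide in the sample names and covered every gene of the count table: 3 SpACE libraries and 3 ABEmax libraries, 6 of 33 in all. HEK293T is a human embryonic kidney line that carries the SV40 large T antigen. Cells received a plasmid for the editor fused through P2A to EGFP and a plasmid for the guide, and were sorted for GFP 36 to 40 h later. The groups used here were SpACE with HEKsite2, ABEmax with HEKsite2, SpACE with a guide to the RNF2 locus, ABEmax with that guide, miniABEmax-V82G and Target-AID with either guide, nCas9 (the Cas9 nickase without a deaminase) with either guide, and GFP without a guide, each with 3 libraries. All groups other than GFP therefore shared plasmid transfection, a nickase, a guide and the GFP sort. The editors differed in the deaminase part, and any other difference between their plasmids cannot be told apart from it. The column names of the SpACE libraries also carry the term UGI, the uracil glycosylase inhibitor used in cytosine editors, which their sample labels do not mention.

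Adenine base editors join the Cas9 nickase to an engineered TadA, an enzyme that turns adenosine into inosine, which polymerases and ribosomes read as guanosine. Target-AID carries a cytidine deaminase of the AID family in place of TadA, and SpACE joins the deaminases of miniABEmax-V82G and Target-AID on 1 nickase. Such deaminases can also act on cellular RNA without the guide, which is why transcriptomes of transfected cells are compared between editors. Expression of a large foreign protein can engage the heat shock response, in which HSF1 induces chaperones, and the integrated stress response, in which phosphorylation of eIF2 lowers bulk translation and favours translation of ATF4, the activator of amino acid transport and synthesis genes and of DDIT3.

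The 3 SpACE libraries held 8690271 to 9248089 counts and the 3 ABEmax libraries 6790209 to 7453087 counts. Of 26475 genes, 2603 had no count in any of the 33 libraries and 14613 passed the filter on low counts and were tested with edgeR's quasi-likelihood test in 1 fit of all 33 libraries. Of the 12 fixed markers of HEK293 lines, 10 passed the filter on low counts, among them HOXD13, NEFL and VIM, while PAX2 had 7 counts over the SpACE libraries against 10 over the ABEmax libraries and PAX8 had 1 against 0. Of 14 liver markers, 12 had under 10 counts in either group, with summed counts of 19 to 29 per SpACE library and 17 to 25 per ABEmax library. Of 13 erythroid markers, 11 had under 10 counts in either group, with sums of 75 to 96 per SpACE library and 53 to 73 per ABEmax library, and HBG1, HBG2 and HBA2 were at 0. Of 12 mesenchymal markers, 6 passed the filter on low counts. These 6 summed to 42.4 to 50.3 CPM in SpACE libraries and 37.7 to 46.3 CPM in ABEmax libraries, which overlapped. TWIST1 was called among them (log2 fold change 0.63), but not by DESeq2 and not in 5 of 6 omissions of a single library. The labels do not say whether replicates came from separate cultures, so each p reflects the spread among libraries alone, which may be technical.

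Between the editors, 988 of 14613 tested genes (6.76%) were called at an adjusted p under 0.05, 438 of them (3%) higher and 550 (3.76%) lower in SpACE. Most differences were small, with a median size of 0.34 on the log2 scale among called genes. Differences of 2-fold or more were nearly all in 1 direction: 84 called genes were at least 2-fold lower in SpACE and 6 at least 2-fold higher. The number called depended on single libraries: it was 426 without SpACE replicate 3, 493 without SpACE replicate 2, 582 without ABEmax replicate 3 and 611 without ABEmax replicate 1.

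**Figure D1:**
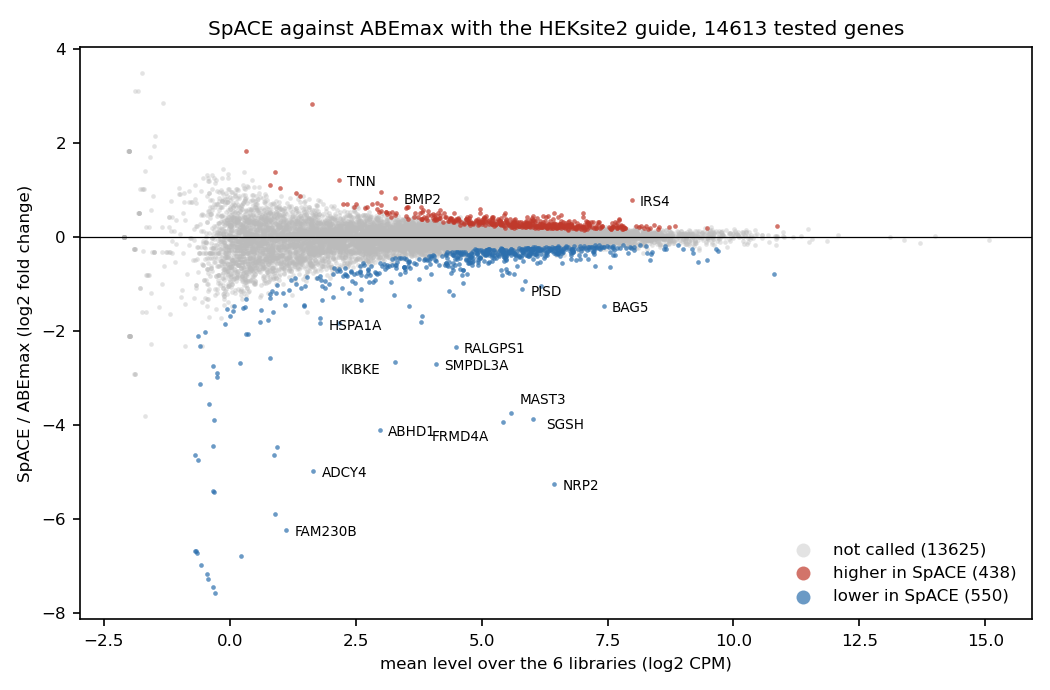
Each point is a tested gene, with its mean level over the 6 libraries on the x axis (log2 CPM) and the SpACE over ABEmax difference on the y axis (log2 fold change). Red points are the 438 genes called higher and blue points the 550 called lower in SpACE. NRP2, SGSH, FRMD4A and MAST3 lie far below the other genes of similar level.

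The strongest falls were in genes that were low in SpACE cells and many times higher in ABEmax cells. NRP2 (chr2:205681990-205798133, GRCh38, plus strand), a co-receptor for semaphorins and VEGF, had 12.1, 14.0 and 15.8 CPM (reads of a gene relative to the scaled depth of its library) in the SpACE libraries, against 574, 517 and 518 CPM in the ABEmax libraries. Its log2 fold change was -5.26 ± 0.16 (SE; edgeR adjusted p = 7.91e-28), from 374 counts over the SpACE libraries and 11284 over the ABEmax libraries. The groups were far apart, and the mean of NRP2 in nCas9 cells was 14.0 CPM (log2 fold change of SpACE over nCas9 -0.00, edgeR adjusted p = 0.995).

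SGSH (chr17:80206716-80220923, minus strand), the lysosomal sulfamidase that degrades heparan sulfate, had 19.4, 16.4 and 15.3 CPM in SpACE cells, against 290, 203 and 253 CPM in ABEmax cells (log2 fold change -3.87 ± 0.11 SE, edgeR adjusted p = 3.12e-28). FRMD4A (chr10:13643706-14462142, minus strand), a FERM-domain scaffold protein, had 12.9, 10.96 and 9.15 CPM in SpACE cells, against 228, 141 and 140 CPM in ABEmax cells (log2 fold change -3.94 ± 0.16 SE, edgeR adjusted p = 3.18e-24). MAST3 (chr19:18097793-18151692, plus strand), a microtubule-associated serine/threonine kinase, had 13.6, 12.9 and 12.5 CPM in SpACE cells, against 201, 159 and 161 CPM in ABEmax cells (log2 fold change -3.74 ± 0.13 SE, edgeR adjusted p = 4.95e-26). In each of these genes every SpACE library lay more than 10 times below the lowest ABEmax library.

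The other named falls were ABHD1 (log2 fold change -4.10), SMPDL3A (-2.70), a secreted phosphodiesterase related to acid sphingomyelinase, IKBKE (-2.65), a kinase of innate immune signalling, and RALGPS1 (-2.34), an exchange factor for Ral GTPases, together with 2 genes of low count. ADCY4, an adenylate cyclase, had 13 counts over the SpACE libraries and 335 over the ABEmax libraries (log2 fold change -4.98 ± 0.50 SE). FAM230B, a noncoding gene on chromosome 22 whose family has near-identical copies, had 4 counts over the SpACE libraries and 260 over the ABEmax libraries. Reads of FAM230B can be shared with those copies, so the gene that gave them is uncertain. Over the 10 genes the largest adjusted p of edgeR was 5.01e-15, for FAM230B and ADCY4, and no omission of a single library ended a call.

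These 10 genes were low in the groups without ABEmax. The mean level in ABEmax cells with HEKsite2 was 3.82 to 41.4 times the highest mean among the 9 groups without ABEmax, with IKBKE lowest and FAM230B highest in that ratio. Against nCas9 with HEKsite2, the same 10 genes differed in SpACE cells by -0.91 (FAM230B) to 0.61 (SMPDL3A) on the log2 scale, and SMPDL3A alone was called (edgeR adjusted p = 0.04). Together they took 0.00746% to 0.00824% of the counts of a SpACE library and 0.121% to 0.144% of an ABEmax library. They lay on 9 chromosomes. Of the 20 nearest tested genes on either side that did not overlap them, none was called between the editors by edgeR (log2 fold changes -0.57 to 0.21). Genes that overlap them were not examined. Against nCas9, 2 of the 20 were called in ABEmax cells, KHK (-0.56) and SLC5A6 (-0.23), which flank ABHD1 and were lower there.

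**Figure D2:**
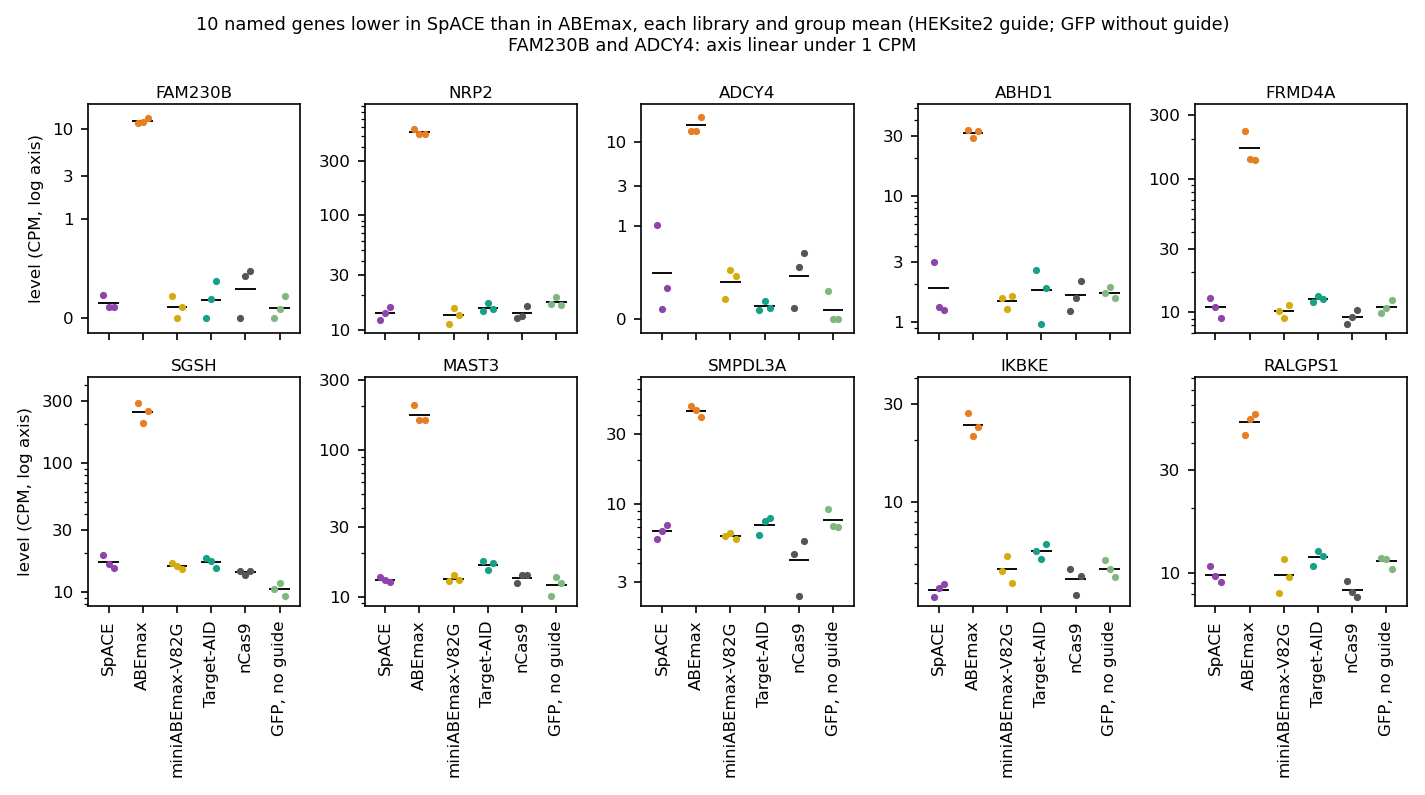
Level of the 10 genes with the strongest named falls in each library (CPM, log axis; linear under 1 CPM for FAM230B and ADCY4), by editor, with the mean of 3 libraries as a bar. SpACE, miniABEmax-V82G, Target-AID, nCas9 and GFP libraries lie together, and the 3 ABEmax libraries lie above all of them.

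Genes of lower level were also among the large falls. Of the 84 genes at least 2-fold lower in SpACE, 47 had a mean under 1 on the log2 CPM scale, and such genes could pass the filter on low counts through the ABEmax libraries alone. With the RNF2 guide, in separate libraries, 58 of the 84 were also called lower, against 6.89% of all tested genes. The filter also used the ABEmax libraries with RNF2. For the 47 genes of low level these 2 shares are therefore not a like comparison. In 43 of the 84, all 6 ABEmax libraries of both guides lay above all 27 libraries without ABEmax, against 74 of 14613 tested genes (0.506%). The choice of these genes fixes that order in part. SEMA5A, an axon guidance protein, had 0 counts in every SpACE library with HEKsite2 and 29, 16 and 13 counts in the ABEmax libraries, and C14orf180 had 0 counts against 22, 15 and 16. TAS1R1, a subunit of the umami taste receptor, had 4 counts over the SpACE libraries and 206 over the ABEmax libraries, and CLDN3, a tight junction protein, had 1 and 120. These 4 genes fell below the level set for named genes and were chosen after their values were seen.

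Among well expressed genes with smaller falls, also chosen after their values were seen, BAG5, a co-chaperone of HSP70, had 110, 100.4 and 101 CPM in SpACE cells, against 329, 257 and 267 CPM in ABEmax cells (log2 fold change -1.46 ± 0.07 SE, edgeR adjusted p = 1.34e-19). PISD, the mitochondrial phosphatidylserine decarboxylase, had 38.1, 40.7 and 35.3 CPM in SpACE cells, against 83.2, 80.0 and 82.9 CPM in ABEmax cells (log2 fold change -1.11 ± 0.07 SE, edgeR adjusted p = 7.96e-16). In both genes the groups were clearly apart, and the difference between SpACE and nCas9 was not called (log2 fold change 0.11 for BAG5 and 0.08 for PISD, edgeR adjusted p = 0.317 and 0.467).

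Rises in SpACE were smaller. IRS4, an insulin receptor substrate highly expressed in HEK293 lines, had 294, 333 and 371 CPM in SpACE cells, against 163, 207 and 206 CPM in ABEmax cells (log2 fold change 0.79 ± 0.09 SE, edgeR adjusted p = 1.9e-08). The 2 groups did not overlap, which the choice of named rises required, and the nCas9 mean of 230 CPM lay between them. In 24.9% of all tested genes the 3 libraries of each editor were apart in 1 direction or the other. BMP2, a ligand of the TGF-beta family, had 10.6, 12.9 and 15.03 CPM in SpACE cells, against 5.95, 8.08 and 7.54 CPM in ABEmax cells (log2 fold change 0.83 ± 0.14 SE, edgeR adjusted p = 9.71e-05). TNN, the extracellular matrix protein tenascin-N, had 8.05, 6.51 and 5.08 CPM in SpACE cells, against 2.68, 2.89 and 2.83 CPM in ABEmax cells (log2 fold change 1.22 ± 0.26 SE, edgeR adjusted p = 0.00126), and 1.48 CPM in nCas9 cells. C7orf25 rose by 0.96 on the log2 scale.

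The other 6 named rises were SPIN2B, PLD1, ZNF287, EMX2OS, ERICH5 and TRIM71, with log2 fold changes of 0.70 to 0.95. Each of these 6 lost its call in 2 to 4 of the 6 omissions of a single library, with edgeR adjusted p up to 0.212 for SPIN2B. Of the 10 named rises, 4 were also called higher with the RNF2 guide and all 10 had a positive value there. Of the 6 genes at least 2-fold higher in SpACE, none was called with the RNF2 guide. ANKRD34A, singled out after its values were seen, had the largest rise (log2 fold change 2.83), but 279 of its 315 SpACE counts came from replicate 1, and without that library its log2 fold change was 0.26 (edgeR adjusted p = 0.714).

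The members of 23 fixed gene lists moved unequally. Over all tested genes the median log2 fold change was 0.00. The integrated stress response list had the lowest median, -0.22, and the list of G2 and mitosis genes the highest, 0.12.

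**Figure D3:**
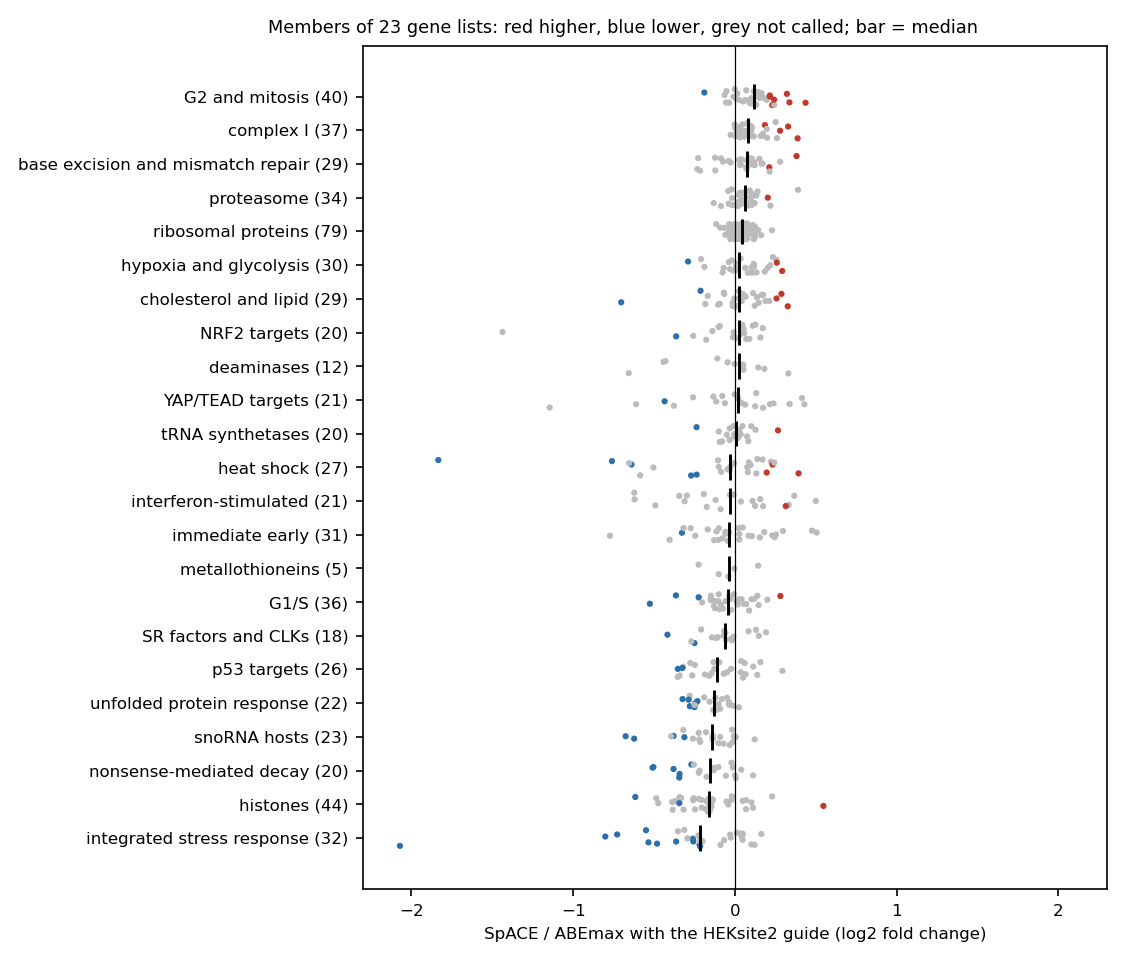
SpACE over ABEmax difference (x axis, log2 fold change) of each tested member of 23 gene lists (y axis, number of tested members in brackets); the black bar is the median. The integrated stress response, nonsense-mediated decay, snoRNA host and unfolded protein response lists have called members only on the lower side. The same holds, with 1 or 2 called members each, for p53 targets, SR factors and CLKs, immediate early genes, YAP/TEAD targets and NRF2 targets.

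Of 32 tested genes of the integrated stress response, 11 were called lower in SpACE and 0 higher, against 3.76% and 3% of all tested genes. DDIT3, the transcription factor CHOP, had 35.2, 29.7 and 30.6 CPM in SpACE cells, against 56.7, 55.7 and 54.1 CPM in ABEmax cells (log2 fold change -0.80 ± 0.08 SE, edgeR adjusted p = 8.28e-10). ATF4, the central activator, had 524, 530 and 522 CPM in SpACE cells, against 757, 769 and 757 CPM in ABEmax cells (log2 fold change -0.53 ± 0.06 SE, edgeR adjusted p = 6.02e-09). The libraries of the 2 editors were well apart in both genes. For ATF4 the nCas9 mean of 630 CPM lay between the editors (SpACE over nCas9 -0.26 on the log2 scale, edgeR adjusted p = 0.000722), and for DDIT3 the nCas9 mean of 32.8 CPM was close to SpACE.

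CTH, which makes cysteine from cystathionine, had 89.0, 75.7 and 74.3 CPM in SpACE cells, against 118, 114 and 118 CPM in ABEmax cells (log2 fold change -0.55 ± 0.07 SE). SESN2, an inhibitor of mTORC1 signalling, had 314, 258 and 252 CPM in SpACE cells, against 403, 362 and 385 CPM in ABEmax cells (log2 fold change -0.48 ± 0.07 SE). The transporter SLC7A11, which imports cystine, fell by 0.36 and the mitochondrial serine hydroxymethyltransferase SHMT2 fell by 0.26. FGF21, a secreted metabolic hormone, had 0.575, 0.434 and 0.452 CPM in SpACE cells, against 2.23, 2.16 and 1.88 CPM in ABEmax cells. The remaining 4, ADM2, DDIT4, SLC3A2 and SLC1A5, lost their calls in 3 to 5 of 6 omissions of a single library, with log2 fold changes of -0.73 to -0.22 and edgeR adjusted p up to 0.286. The list's count was 7 without SpACE replicate 2, without SpACE replicate 3 or without ABEmax replicate 3.

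**Figure D4:**
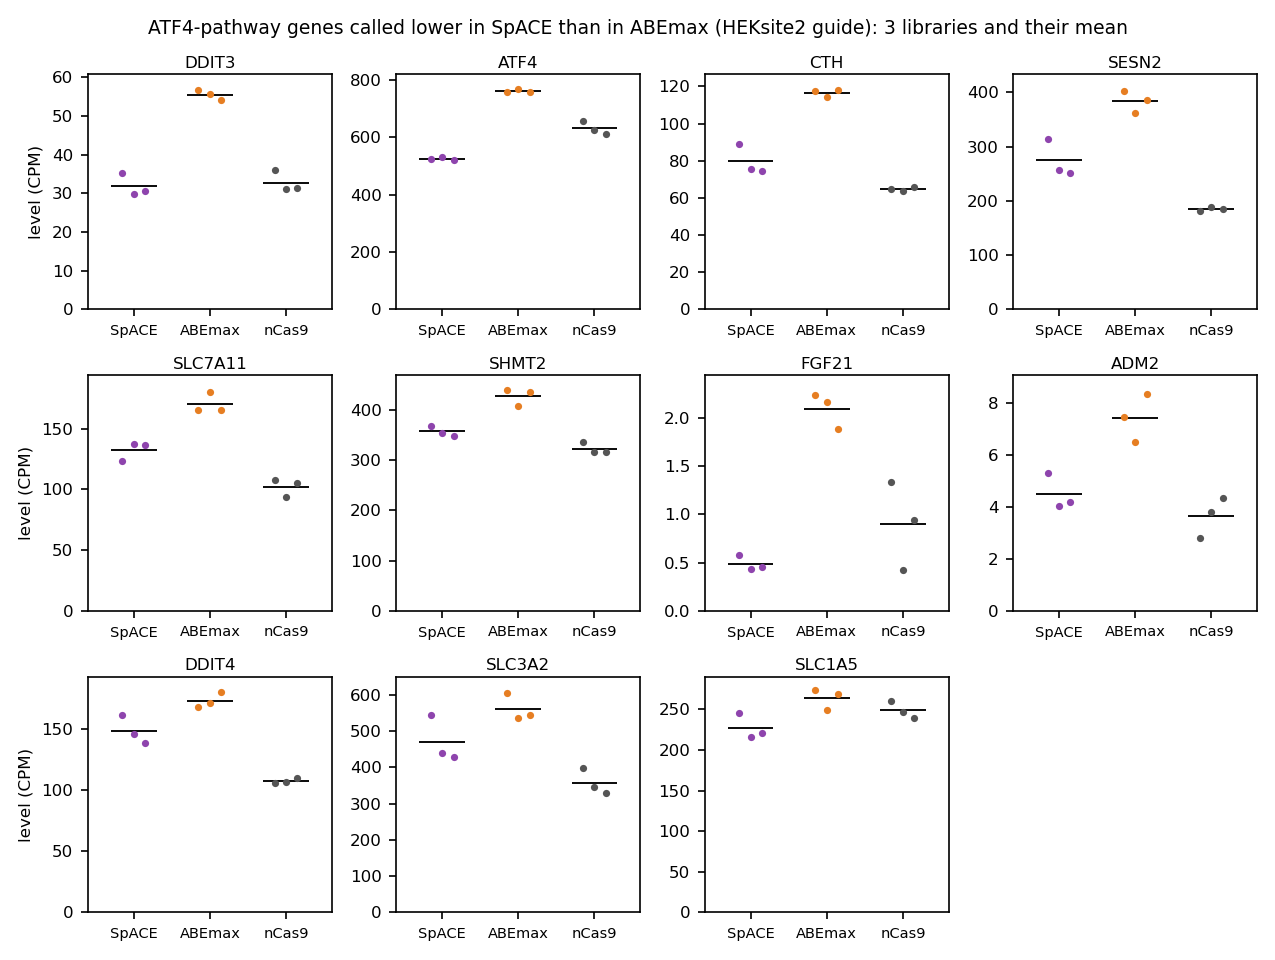
Level (CPM, y axes starting at 0) of the 11 called genes of the integrated stress response list in the 3 libraries of SpACE, ABEmax and nCas9 with the HEKsite2 guide; bars are means. The ABEmax mean is the highest in each gene; for SLC3A2 the SpACE and ABEmax libraries overlap, and for SLC1A5 the nCas9 and ABEmax libraries overlap.

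Other genes of that response were not called. ASNS, the asparagine synthetase, had 398, 411 and 412 CPM in SpACE cells, against 380, 357 and 354 CPM in ABEmax cells (log2 fold change 0.16, edgeR adjusted p = 0.105). PSAT1 and PHGDH, which make serine, had log2 fold changes of 0.10 and 0.05, and ATF3 -0.09 (edgeR adjusted p = 0.382, 0.771 and 0.517). Set against nCas9 with the same guide, 25 of the 32 genes were called higher and 2 lower in SpACE cells (median log2 fold change 0.41), where 10.7% and 10.2% of all tested genes were. In ABEmax cells 29 were called higher and 1 lower (median 0.65), against 8.31% and 7.55% of all tested genes. These last 2 comparisons share the nCas9 libraries.

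The promoters of the called genes were searched for the C/EBP-ATF response element that ATF4 binds, as TGATGNAA on either strand (TTNCATCA on the other strand). Of 35116 promoters in RefSeq (GRCh38.p14), each 250 bases before to 50 after a transcript start, 3.62% held it, and of 15709 promoters of tested genes 1.97%. For 9 of the 11 called genes the table gave 15 promoters, and 3 of these held the element (20.0%), against 8 of 41 promoters (19.5%) of all tested genes of the list, called or not. The 3 are shown to place the element, in capitals, in promoters of called members, and the match describes letters only. SLC3A2 and SLC1A5 are among the genes whose calls were lost in single omissions, and none of the 3 genes was called with the RNF2 guide. The first lies at chr19:48755274-48755573, plus strand, the second at chr11:62881449-62881748, plus strand, 1 of 3 listed promoters of its gene, and the third at chr19:46784765-46785064, minus strand, 1 of 3 listed promoters of its gene.
FGF21: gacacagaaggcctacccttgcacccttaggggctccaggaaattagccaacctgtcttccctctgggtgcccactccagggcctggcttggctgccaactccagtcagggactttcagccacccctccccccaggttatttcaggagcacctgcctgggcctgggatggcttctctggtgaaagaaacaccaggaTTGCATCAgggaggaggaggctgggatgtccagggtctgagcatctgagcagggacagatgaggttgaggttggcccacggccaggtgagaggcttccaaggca
SLC3A2: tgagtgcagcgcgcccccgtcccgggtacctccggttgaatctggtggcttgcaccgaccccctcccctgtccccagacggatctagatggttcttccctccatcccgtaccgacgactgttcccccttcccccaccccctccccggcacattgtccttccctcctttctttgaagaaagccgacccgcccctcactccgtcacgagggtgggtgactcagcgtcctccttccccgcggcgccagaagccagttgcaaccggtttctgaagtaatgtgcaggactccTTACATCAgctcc
SLC1A5: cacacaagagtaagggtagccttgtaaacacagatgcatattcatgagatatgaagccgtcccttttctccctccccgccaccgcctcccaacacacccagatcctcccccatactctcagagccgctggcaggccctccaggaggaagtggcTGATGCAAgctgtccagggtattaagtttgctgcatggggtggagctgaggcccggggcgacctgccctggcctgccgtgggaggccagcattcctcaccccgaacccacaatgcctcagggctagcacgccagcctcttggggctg

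In the unfolded protein response of the endoplasmic reticulum, 6 of 22 tested genes were called lower in SpACE and 0 higher (median log2 fold change -0.13), against 3.76% and 3% of all tested genes. They were HSPA5, the chaperone BiP (-0.32), MANF (-0.29), HERPUD1, a part of the degradation machinery (-0.28), the calcium-binding chaperone CALR (-0.25), the disulfide isomerase PDIA4 (-0.25) and SEL1L (-0.23). The count was 3 without ABEmax replicate 1 or without SpACE replicate 2. XBP1, the transcription factor of the IRE1 branch, had 349, 324 and 325 CPM in SpACE cells, against 390, 329 and 351 CPM in ABEmax cells, which overlapped (edgeR adjusted p = 0.406).

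Genes of nonsense-mediated decay, the pathway that removes transcripts with early stop codons, and its usual targets were called on the lower side alone. Of 20 tested, 6 were called lower in SpACE and 0 higher (median log2 fold change -0.15), against 3.76% and 3% of all tested genes. They were NAT9 (-0.51), SMG9 (-0.50), SNHG1 (-0.38), the helicase UPF1 (-0.34), SMG5 (-0.34) and UPF3B (-0.27). NAT9 had 28.8, 27.3 and 26.7 CPM in SpACE cells, against 38.8, 42.9 and 36.2 CPM in ABEmax cells, with no overlap. UPF3B lost its call in 4 of 6 omissions of a single library (edgeR adjusted p up to 0.167). The factors UPF1, SMG5, SMG9 and UPF3B carry out the decay, while SNHG1 is a host of small nucleolar RNAs that the pathway degrades. Of 23 such host genes 4 were called lower and 0 higher (against the same 3.76% and 3%), SNHG7 most (39.3, 34.4 and 32.1 CPM in SpACE cells, against 56.6, 53.8 and 58.5 CPM in ABEmax cells; log2 fold change -0.68, edgeR adjusted p = 8.6e-06), and the count was 2 without SpACE replicate 3.

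Heat shock genes were high with both editors and differed between them in both directions. Of 27 tested, 24 were above nCas9 by the test in SpACE cells (median log2 fold change 0.91) and 24 in ABEmax cells (0.70), where 10.7% and 8.31% of all tested genes were; both counts use the same nCas9 libraries. Between the editors 5 were called lower in SpACE and 3 higher (median log2 fold change -0.03), against 3.76% and 3% of all tested genes. HSPA6, an HSP70 that is expressed mainly under stress, had 205, 133 and 119 CPM in SpACE cells, against 238, 243 and 230 CPM in ABEmax cells (log2 fold change -0.64 ± 0.11 SE, edgeR adjusted p = 8.4e-05), and 16.3 CPM in nCas9 cells. HSPB8 (-0.76), the collagen chaperone SERPINH1 (-0.27) and BAG3 (-0.24) were also called lower. HSPA4L (0.39), the mitochondrial chaperonin HSPD1 (0.23) and the HSP90 co-chaperone PTGES3 (0.20) were called higher. BAG3 and PTGES3 lost their calls in 5 of 6 omissions of a single library, and 2 members were called lower without ABEmax replicate 3. HSPA1A was lower (log2 fold change -1.83), but it had 1.02 to 2.19 CPM in SpACE cells and 5.20 to 6.70 CPM in ABEmax cells, while its near-identical neighbour HSPA1B had 1180 to 1233 and 1261 to 1359 CPM. Reads can be assigned to either copy, so the HSPA1A value is uncertain.

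Genes of G2 and mitosis were called mainly on the higher side. Of 40 tested, 7 were called higher in SpACE and 1 lower (median log2 fold change 0.12), against 3% and 3.76% of all tested genes. HMMR, a spindle protein, had 99.4, 110 and 108 CPM in SpACE cells, against 81.9, 78.8 and 74.1 CPM in ABEmax cells (log2 fold change 0.44 ± 0.07 SE, edgeR adjusted p = 5.78e-05), with no overlap. The kinesins KIF23 (0.34) and KIF11 (0.22), DLGAP5 (0.32), the kinase NEK2 (0.24), the cyclin CCNA2 (0.23) and ANLN (0.22) were also called higher, and KIF2C (-0.19) lower. KIF2C lost its call in 6 of 6 omissions of a single library, by DESeq2, with no filter on low counts and with a correction for GC content, and DESeq2 called 8 of the list higher and 0 lower. The count of higher genes was 4 without ABEmax replicate 3 or without SpACE replicate 3. Of 36 genes of the G1/S transition, the transcription factors E2F1 (-0.37) and E2F2 (-0.53) and the replication factor GINS4 (-0.22) were called lower, and the ribonucleotide reductase subunit RRM2 (0.28) higher, against 3.76% and 3% of all tested genes. GINS4 lost its call in 5 of 6 omissions of a single library (edgeR adjusted p up to 0.136) and with no filter on low counts. In sorted bulk samples, a different share of cells in a phase and a different RNA amount per cell cannot be told apart.

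Among metabolic lists, 4 of 37 subunits and assembly genes of mitochondrial complex I were called higher and 0 lower (median log2 fold change 0.08), against 3% and 3.76% of all tested genes, with NDUFB2 at 52.3, 48.7 and 51.6 CPM in SpACE cells, against 40.2, 36.7 and 39.8 CPM in ABEmax cells. That count was 1 without SpACE replicate 2 or without SpACE replicate 3 and 2 without ABEmax replicate 2. In cholesterol and lipid synthesis, SQLE (0.33) and MSMO1 (0.26), enzymes of sterol synthesis, were called higher, while SREBF1 (-0.70), a transcription factor of lipid synthesis, and SC5D (-0.21) were called lower. SREBF1 had 35.3, 31.0 and 31.5 CPM in SpACE cells, against 46.9, 51.2 and 60.8 CPM in ABEmax cells (edgeR adjusted p = 9.21e-06), with no overlap.

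The other lists are given against the 3% of all tested genes called higher and the 3.76% called lower. Hypoxia and glycolysis had 2 higher and 1 lower of 30, histones 1 and 2 of 44, p53 targets 0 and 2 of 26, SR splicing factors and CLK kinases 0 and 2 of 18, base excision and mismatch repair 2 and 0 of 29, and tRNA synthetases 1 and 1 of 20. Immediate early genes, YAP and TEAD targets and NRF2 targets each had 0 higher and 1 lower, of 31, 21 and 20 tested. The proteasome and interferon-stimulated genes each had 1 higher and 0 lower, of 34 and 21 tested. No call was made by edgeR or DESeq2 among 79 ribosomal protein genes (2 with an unadjusted edgeR p under 0.05), 12 endogenous deaminases (2) or 5 metallothioneins (1).

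The RNF2 guide gave a second comparison of the 2 editors in separate libraries. There, 1908 genes (13.1%) were called, 901 higher (6.17%) and 1007 lower (6.89%) in SpACE, and the count was 1026 without ABEmax RNF2 replicate 3 and 1042 without SpACE RNF2 replicate 1. Of the 988 genes called with HEKsite2, 547 were called in the same direction with RNF2 (211 higher and 336 lower) and 1 in the opposite direction. The sign was the same in 953 of the 988, against 10083 of all 14613 tested genes. The 547 were 55.4% of the HEKsite2 calls and 28.7% of the RNF2 calls. Across all 14613 tested genes, which are not independent replicates, Pearson's r of the 2 sets of log2 fold changes was 0.617 and Spearman's rho 0.467.

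**Figure D5:**
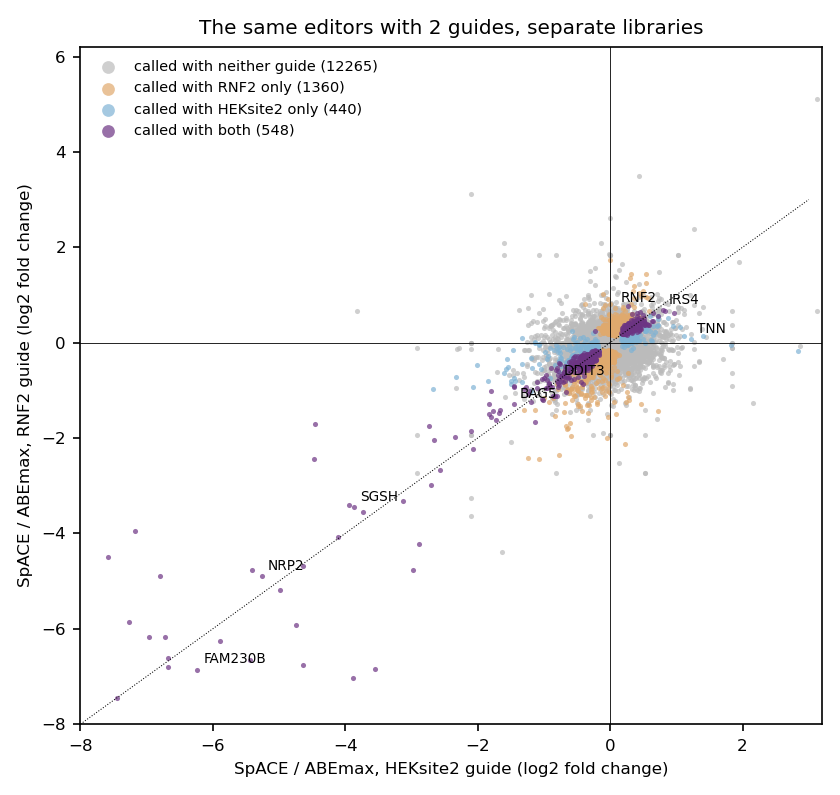
SpACE over ABEmax difference of each tested gene (log2 fold change) with the HEKsite2 guide (x axis) and the RNF2 guide (y axis), from separate libraries; the dotted line marks equal values. Genes called with both guides follow the line from the largest falls, such as NRP2 and FAM230B, to IRS4, and TNN and RNF2 lie off it.

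All 10 named falls were called lower with the RNF2 guide, among them NRP2 (log2 fold change -4.89), SGSH (-3.45) and FRMD4A (-3.41). Of the 11 called genes of the integrated stress response, DDIT3 (-0.81), CTH (-0.77), ADM2 (-0.70), SESN2 (-0.44), SLC7A11 (-0.43) and ATF4 (-0.27) were called lower with RNF2, while DDIT4, SLC3A2, SHMT2, SLC1A5 and FGF21 were not. Of the 32 tested genes of that list, 6 were called lower and 3 higher with RNF2, ASNS among the higher ones (0.44). All 6 genes of nonsense-mediated decay were called lower again, with 10 of 20 in all. None of the 6 genes of the unfolded protein response and, of the 7 higher genes of G2 and mitosis, HMMR alone (0.24) was called with RNF2. Over the whole lists, 1 of 22 genes of the unfolded protein response was called higher and 3 lower with RNF2. Of 40 genes of G2 and mitosis 4 were higher and 1 lower, and of 27 heat shock genes 7 were higher and 4 lower. With RNF2, complex I had 11 of 37 genes called higher and 0 lower. These counts stand against 6.17% of all tested genes called higher and 6.89% called lower with RNF2. The difference between the guides was itself called in 8 genes (0.0547%), which are described among the additional observations. In all 8 the log2 fold change of SpACE over ABEmax was lower with HEKsite2 than with RNF2.

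Set against nCas9 with HEKsite2, the 550 genes lower in SpACE had a median log2 fold change of -0.24 in SpACE cells, where 32 were called higher and 238 lower, and of 0.18 in ABEmax cells, where 204 were called higher and 31 lower. The 438 genes higher in SpACE had a median of 0.21 in SpACE cells, with 221 called higher and 4 lower, and of -0.11 in ABEmax cells, with 20 higher and 82 lower. Over all tested genes, 10.7% were called higher and 10.2% lower in SpACE cells, and 8.31% and 7.55% in ABEmax cells. Both comparisons share the nCas9 libraries, so they are given side by side only. The genes were also chosen by the difference between these same SpACE and ABEmax libraries, which fixes the order of the medians and part of the counts.

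The called genes differed in base composition, which was not used to choose them. Among the 94.4% of tested genes matched to GENCODE release 29, the median GC content of the longest transcript was 41.6% for genes higher in SpACE and 55.3% for genes lower in SpACE, against 48.2% over all tested genes. Of 2195 genes with a GC content under 40%, 145 were called higher and 36 lower, and of 1955 genes at 60% or more, 6 were called higher and 137 lower. The Spearman correlation of log2 fold change with GC content over 13796 genes was -0.248 with HEKsite2 and -0.155 with RNF2, values that come from the same 6 libraries each. Within the SpACE group, the median deviation of GC-rich genes minus that of GC-poor genes was 0.0319 in replicate 1, -0.124 in replicate 2 and -0.152 in replicate 3, against 0.0781, 0.00616 and 0.0961 in the ABEmax libraries (log2 CPM, relative to the mean of all 33 libraries). With a per-library correction for GC content, chosen after these values were seen, 817 genes were called, 353 higher and 464 lower, and 673 of them were called in the same direction without it. The correction left NRP2, SGSH, ATF4 and DDIT3 called. Calls that it ended included those of CCNA2, KIF11, ANLN, KIF2C, BAG3, PTGES3, DDIT4, SLC3A2 and SLC1A5. They also included NDUFS1 of complex I, PSMA1 of the proteasome, the immediate early gene IER2 and the histone genes HIST1H3E and HIST1H4C. Their directions were kept: CCNA2 had a log2 fold change of 0.20 with the correction (edgeR adjusted p = 0.0633), KIF11 0.16 (0.0709), BAG3 -0.17 (0.201) and SLC1A5 -0.12 (0.34).

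Of the 527 genes lower in SpACE with an annotated type, 26 (4.93%) were pseudogenes, against 1.76% of all tested genes. Among the 426 annotated genes higher in SpACE, 422 were protein-coding, against 481 of the 527 lower genes and 12832 of all 13796 annotated tested genes. CSH2, a placental lactogen gene of the growth hormone cluster, had 1602, 1306 and 1221 CPM in SpACE cells, against 2693, 2051 and 2377 CPM in ABEmax cells (log2 fold change -0.79 ± 0.09 SE, edgeR adjusted p = 1.74e-07), and the groups were apart. Its neighbours had few counts: GH1 had 11 over the SpACE libraries and 14 over the ABEmax libraries, GH2 had 12 and 7, and CSH1 and CSHL1 had 0. The globin genes HBB and HBD had 4 and 3 counts over the SpACE libraries and 0 over the ABEmax libraries. CSH2 had 93896 counts over the GFP libraries and 5 over the Target-AID libraries with HEKsite2, where HBB had 130144 and HBD 145360. The source of these counts was not tested.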

How the data were processed

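Total RNA of GFP-sorted HEK293T cells was sequenced from stranded libraries, per the labels' protocols. The authors deposited whole-number counts per gene, not normalized. The submitters' processing notes name STAR, GATK 3.8.1, Picard 2.7 and the build GRCh38, with no roles. How reads were counted per gene (tool, strand setting, gene models) is not stated in the labels or headers, so reads of overlapping or antisense genes may not be separable. Samples were grouped by editor and guide from the labels, and every count column was matched to a sample by name.

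Genes were filtered by edgeR's filterByExpr and fitted with TMM scaling and quasi-likelihood (edgeR 4.0.16, R 4.3.3) over all 33 libraries as 11 group means, with 22 residual degrees of freedom. Tests were two-sided, adjusted by Benjamini-Hochberg over 14613 genes, and called under 0.05. SEs are from the fitted coefficients. CPM are counts per 1e+06 of the TMM-scaled library size. Library totals were 6790209 to 11200406 counts, and counts carry no molecular identifiers.

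Named genes were the 10 strongest rises and 10 strongest falls among called genes with a mean of at least 1 log2 CPM and 3 libraries apart, 4 genes per list by p, and 6 by the guide difference. The gene lists and the comparison were chosen with earlier results of these data known. Alternatives were DESeq2 1.42.0 size factors and test, no filter, a replicate block, smaller fits, omission of each library, and a GC correction. GC content came from GENCODE 29 transcripts and promoters from RefSeq. The HEKsite2 guide sequence was not used here. Some genes are not reported here.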

Additional observations from a re-analysis of the deposited data

Results flagged for a closer look

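For 8 genes (0.0547% of those tested) the difference between SpACE and ABEmax itself differed between the guides in edgeR's interaction test. In each, the log2 fold change of SpACE over ABEmax was lower with the HEKsite2 guide than with the RNF2 guide. In that test 1030 genes had an unadjusted p under 0.05. DSN1, a kinetochore protein, differed by -0.67 on the log2 scale (adjusted p = 1.22e-05), with SpACE over ABEmax at -0.13 with HEKsite2 and 0.53 with RNF2. The gene RNF2, the target of the other guide, differed by -0.65 (adjusted p = 0.00341), with 0.07 and 0.72. RNF2 averaged 62.4 CPM in SpACE cells, 37.9 in ABEmax cells and 36.6 in nCas9 cells with the RNF2 guide, and 71.9, 68.6 and 64.1 CPM with the HEKsite2 guide.

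The translation initiation subunit EIF2S2 differed by -0.53 (adjusted p = 0.00041) and the alanyl-tRNA synthetase AARS by -0.50 (adjusted p = 0.00192). AARS was called higher in SpACE with both guides (0.27 and 0.76). CLUAP1 differed by -0.56, IQCB1 by -0.52, RINT1 by -0.49 and AKAP8L by -0.41, with edgeR adjusted p of 0.0494, 0.0142, 0.0281 and 0.0142. None of these 4, nor DSN1, RNF2 or EIF2S2, was called with HEKsite2. Guide and library set cannot be told apart in these values.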

How the results depend on the processing

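With the HEKsite2 guide, the number of called genes was 761 to 1110 under the alternatives that kept all 6 libraries, DESeq2 lowest and the replicate block highest, and 426 to 1102 with a library left out. With RNF2 it was 1549 to 2086 and 1026 to 1412. For the difference between guides, called in 8 genes, it was 65 with no filter on low counts, 27 by DESeq2, 21 with the replicate block, 15 with the GC correction and 13 with only the compared groups in the fit, and 4 to 13 with a library left out; the cause was not tested. Against nCas9, the number was 2143 to 2648 for SpACE and 1445 to 2163 for ABEmax with a library left out, lowest for ABEmax without nCas9 replicate 1. Same-numbered SpACE and ABEmax libraries had deviations correlated at 0.22, 0.05 and 0.08, and differently numbered ones at -0.19 to 0.12. The main fit did not pair the libraries, and these values do not settle whether the numbers mark pairs. Over 217 single genes, each followed through up to 12 alternatives, no called value changed direction; 334 combinations of a gene and an alternative lost the call. Values near 0 that were not called, such as IQCB1 (-0.04 to 0.08), lay on both sides of it. Depth limits genes with few counts: for those at 0 in SpACE, such as SEMA5A, no fold is given.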
